A study of Danio rerio with 19 samples.

Results

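H3K9me3 peaks of zebrafish brain that were listed at 4 months (4 M) and at neither 12 months (12 M) nor 20 months (20 M) are described here and are called 4 M only regions. They were chosen by the measured presence and absence of peaks. The peaks of the 6 deposited lists were merged wherever they overlapped by at least 1 bp, which gave 90523 regions over the whole series. A merged region was kept when it lay on chromosomes 1 to 25, held no peak of 500 bp or more, and did not start at or beyond base 25000000 of chromosome 4, and 80950 regions met these limits. Of these, 1442 overlapped a peak at 4 M and none at an older age, which is 1.78% of the 80950 and 2.27% of the 63385 with a 4 M peak. Since overlap with the age lists made the selection, these counts and the scores of the peaks are given as a description, with no test.

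The groups were whole brains of wild-type fish of the SAT strain, aged 4 M, 12 M or 20 M, all kept under cycles of light and darkness of equal length before sampling, at zeitgeber time 4 (ZT4, 4 h after lights on) or 16 (ZT16). Each of the 6 groups has 3 H3K9me3 libraries, and 1 further library was made with an antibody against GFP. The labels do not give the sex of the fish or say how many brains a library holds. The authors called peaks once per triplicate, so every group is represented by 1 list with a chromosome, start, end and score per peak and with no value for a single library. The methods state a number of reads but do not tie it to single libraries, and the lists hold no read counts. The spread between fish and the reads behind each peak are therefore unknown, no difference between ages or times could be tested, and the lack of a call in a list leaves the level of the mark at that site unknown. In a whole tissue, fewer cells carrying the mark and less mark per cell cannot be told apart.

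H3K9me3 is the trimethyl mark on lysine 9 of histone H3, found in silent chromatin. It is written by enzymes of the SUV39H and SETDB1 families and bound by HP1 proteins, which compact the marked nucleosomes. Constitutive heterochromatin carries it over repeats near centromeres and telomeres. Facultative heterochromatin carries it over genes that are silenced in a given cell type or at a given time, and in mammals the Period repressor complex of the circadian clock recruits its writers to clock genes.

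The 4 M lists that supplied the regions held 70317 peaks at ZT4 and 55874 at ZT16, and the older lists held 29 (12 M ZT4), 8755 (12 M ZT16), 19177 (20 M ZT4) and 87948 (20 M ZT16). A 4 M only region thus had to be absent from the 20 M ZT16 list, which was longer than either 4 M list. Leaving out both 12 M lists gave 1451 regions in place of 1442. Absence from the 20 M lists therefore made nearly all of the choice, and a loss by 12 M cannot be read from it. Of the 1442 regions, 1203 had a peak in the ZT4 list alone, 195 in the ZT16 list alone and 44 in both. A single peak made up 1398 of them, and the 44 listed at both times were made of 2 peaks each. They covered 188.4 kb, compared with 6199 kb for the 61943 regions shared by 4 M and an older age. Without the limits on chromosome and length, 2985 regions were listed at 4 M alone. The limits left out 1361 on chromosome 4 from base 25000000 on, 168 on unplaced sequences and 14 with a peak of 500 bp or more.

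Low peak scores were the main feature of the 4 M only regions. The score is the whole number written by the authors' peak caller. No scale is stated, so scores of peaks were read within their own list. Score classes of whole regions, used further below, took the higher of the ZT4 and ZT16 scores. Peaks were counted inside the limits on chromosome and length, which 63158 of the ZT4 peaks and 51003 of the ZT16 peaks met, while percentiles refer to a whole list. In the ZT4 list, the 1247 peaks of 4 M only regions had a median score of 15, with quartiles of 13 and 21 and a range of 10 to 231. The 61911 ZT4 peaks of shared regions had a median of 114, with quartiles of 84 and 145. A score of 15 lies at percentile 1.86 of the ZT4 list. The lowest score in both 4 M lists was 10, so most peaks of 4 M only regions lay close to the lowest value listed. In the ZT16 list, the 239 peaks of 4 M only regions again had a median of 15, with quartiles of 12 and 19.5 and a range of 10 to 48, against a median of 74 and quartiles of 58 and 93 for the 50764 peaks of shared regions. The interquartile ranges of both classes did not overlap in either list. Scores under 20 were held by 71.2% of the ZT4 peaks of 4 M only regions (Wilson 95% interval 68.6 to 73.7), and by 0.577% of those of shared regions. The corresponding shares at ZT16 were 74.9% (69.0 to 80.0) and 0.370%. Intervals for shares and medians cover counting error only, since neighbouring regions are not independent draws.

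Most of the weakest 4 M peaks lay in 4 M only regions, and the share fell steeply with the score. Within the limits, 167 of the 216 ZT4 peaks that scored 10 to 12 were in 4 M only regions, or 77.3% (71.3 to 82.4). The share was 73.7% at scores of 13 to 15, 64.2% at 16 to 19 and 46.9% at 20 to 29. It was 6.02% at 30 to 49 and 0.151% at 50 to 99, and a single peak of the 38715 within the limits that scored 100 or more was in a 4 M only region. Among the ZT16 peaks within the limits, the share was 59.6% at 10 to 12 and 55.5% at 13 to 15. It was 35.4% at 16 to 19, 6.73% at 20 to 29 and 0.380% at 30 to 49. None of the 34907 ZT16 peaks within the limits that scored 50 to 99, and none of the 9380 with 100 or more, was in a 4 M only region.

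**Figure D1:**
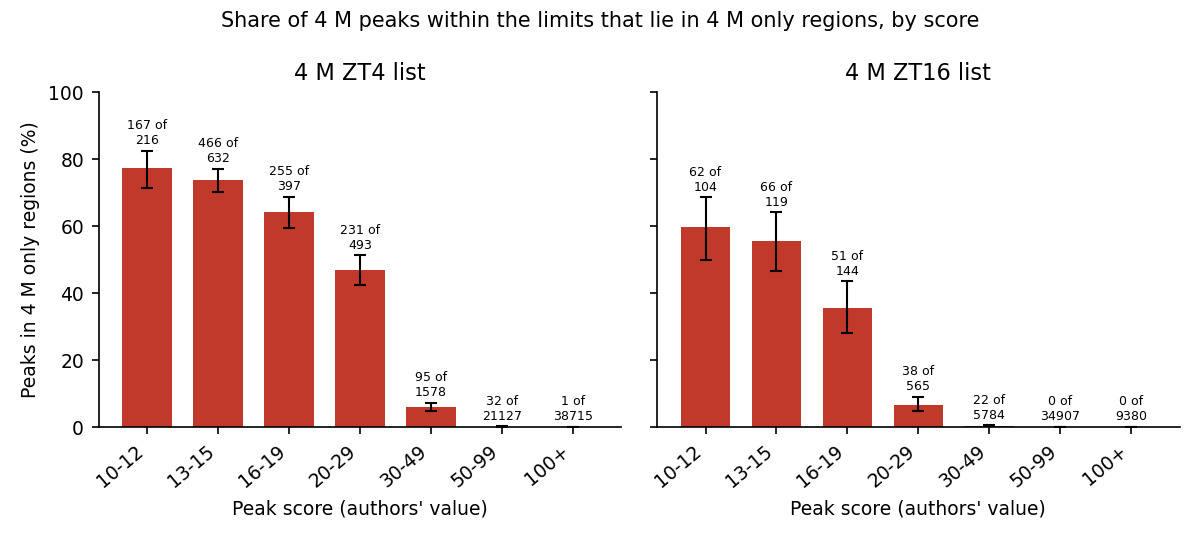
The bars show the percentage of the 4 M peaks within the limits on chromosome and length that lay in 4 M only regions, for each list, by the authors' score, with Wilson 95% intervals and the peak numbers above each bar. The share is 77.3% in the lowest ZT4 class and 59.6% in the lowest ZT16 class, and is close to 0 from a score of 50 on.

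The exceptions to this pattern were few and can be named. A score of 50 or more was reached by 33 ZT4 peaks of 4 M only regions and by no ZT16 peak. The highest, at chr15:3220662-3220737 (GRCz10), scored 231 at ZT4, which is percentile 96.9 of that list, and was not listed at ZT16. A peak of an older age lay 181 bp from it without overlap, and the nearest shared region was 4997 bp away. The next 4 by ZT4 score were chr16:32135470-32135549 with 81, chr10:5221980-5222026 with 78, chr24:8281346-8281391 with 77 and chr1:57817946-57817995 with 70. These 4 are between 46 and 80 bp long, and the nearest peak of an older age was between 907 and 28633 bp away.

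At ZT16 the highest score was 48, at chr7:4001110-4001157, which is percentile 11.9 of the list. It was followed by chr15:20016118-20016193 and chr7:3770049-3770333, both with 40. These last regions were also listed at ZT4, with scores of 35 and 23. Among the 44 regions listed at both times, the highest ZT4 scores were 44 at chr25:36656292-36656586, whose ZT16 score was 33, and 35 at chr15:20016118-20016193 and at chr21:23885894-23886121. The last of these scored 15 at ZT16.

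A 4 M only region was rarely listed at both times of day. Of the 239 ZT16 peaks in such regions, 44 overlapped a ZT4 peak, or 18.4% (14.0 to 23.8), against 99.8% of the ZT16 peaks of shared regions. Among ZT16 peaks that scored under 20, the shares were 15.6% (11.1 to 21.7) for 4 M only regions and 63.8% (56.8 to 70.4) for shared regions. The gap thus remained when peaks of low score were set side by side. Of the 1247 ZT4 peaks, 3.53% overlapped a ZT16 peak, against 81.8% in shared regions. Under a score of 20 these shares were 2.93% (2.01 to 4.26) and 9.52% (6.90 to 13.01). A shared region is by definition listed in at least 2 lists, and whether a region is listed at the other time depends on the same calls that define the classes, so these shares describe the classes and are not a separate measure.

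The 4 M only regions were longer than shared regions, with a median of 119 bp (95% interval 113 to 124) and quartiles of 69 and 176 bp, against 75 bp with quartiles of 62 and 95 bp. Regions listed at 20 M alone, 17522 in number, had a median of 61 bp. Lengths of 100 to 300 bp were found in 55.9% of 4 M only regions (53.3 to 58.4) and in 18.4% of shared regions, and lengths of 75 bp or less in 29.4% and 50.7%. Length varied with time and score among the 4 M only regions themselves. The median was 116 bp for regions of the ZT4 list alone, 122 bp for those of the ZT16 list alone and 189 bp (137 to 228) for the 44 of both lists, which are unions of 2 peaks. It was 126 bp for the 1033 regions whose highest score was under 20, 118.5 bp for the 262 with 20 to 29, and 54 bp for the 147 with 30 or more. In that last class, 70.1% were 75 bp or shorter.

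Within a class of equal score, peaks of 4 M only and of shared regions were of like length in the ZT4 list. Their medians were 120 and 139 bp at scores of 10 to 12, 131 and 149.5 bp at 13 to 15, and 115 and 139 bp at 16 to 19. At 20 to 29 they were 116 and 117 bp, and at 30 to 49 they were 55 and 49 bp. In the 3 lowest classes the 4 M only peaks were thus the shorter ones, opposite in direction to the comparison over all scores. In the ZT16 list they were shorter at 10 to 12 (130 and 138 bp) and longer at 13 to 15 (130.5 and 104 bp), 16 to 19 (138 and 101 bp) and 20 to 29 (111.5 and 78 bp). The quartiles overlapped in each of these classes. Whole shared regions with a 4 M score under 20 had a median of 206 bp, which includes the bases of the older peaks merged into them. At ZT4 both classes thus held long peaks at low scores. These are lengths of single peaks, and whether the score accounts for the greater length over all regions was not tested. At ZT16 a greater median length was also seen at equal score in the classes from 13 to 29.

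**Figure D2:**
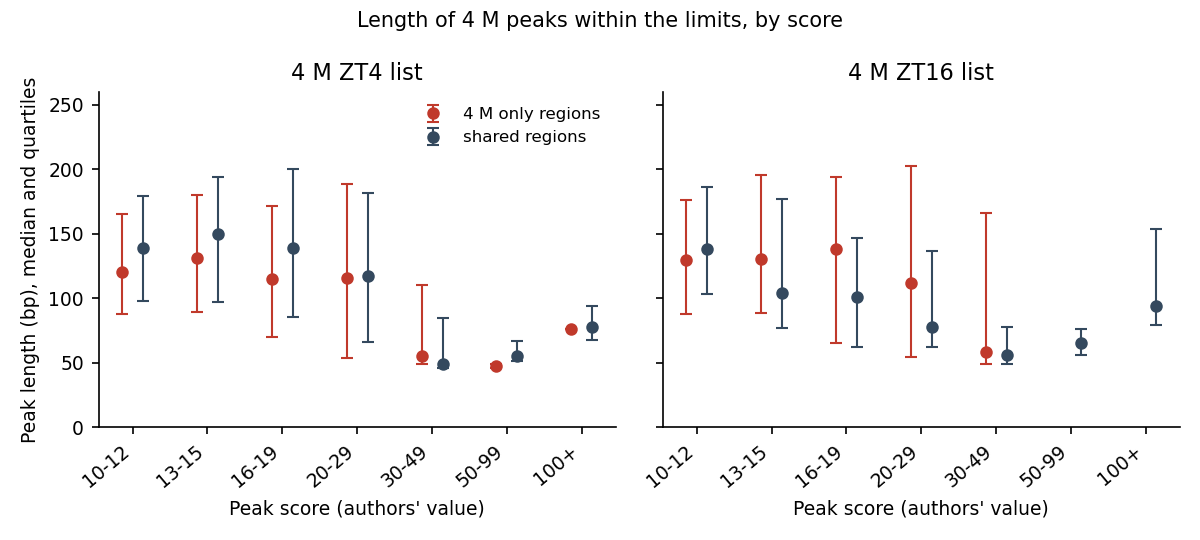
Points show the median length in bp, and bars the quartiles, of 4 M peaks in 4 M only regions and in shared regions, by the authors' score and list. At ZT4 the medians are 120 and 139 bp in the lowest class and 55 and 49 bp at scores of 30 to 49, and the quartile bars of the classes overlap in both.

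Single regions next to the limits of length and chromosome 4 had low scores on either side. The longest single peak inside the length limit was that at chr9:9471369-9471858, with 490 bp and a ZT4 score of 14, and the shortest 4 M only region kept out was chr1:33590135-33590668, with 534 bp and a score of 19. The longest region, chr5:52687011-52687564, has 554 bp because a ZT4 peak of score 21 and a ZT16 peak of score 14 were merged. On chromosome 4, the last region inside the limit was chr4:21906553-21906728 with a score of 13, and the first outside it was chr4:25530955-25531087 with a score of 11. Before that limit, 10 of the 1005 regions with a 4 M peak on chromosome 4 were 4 M only. The 1361 from it on were counted without the length limit, and their share of the regions there is not given. The numbers on either side are therefore not directly comparable. With regard to overlap, 23 of the 4 M only regions lay within 100 bp of a peak of an older age. One of these, chr24:15388072-15388165 with a score of 13, touched an older peak with no base between them. On the other side, 8 shared regions owed their class to an overlap of 10 bp or less, the smallest being 1 bp.

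The 4 M only regions lay farther from shared regions than shared regions lay from each other. The distance was counted in bases between the edges, on the same chromosome, and shared regions of any length could be the neighbour. Its median was 8802 bp for 4 M only regions (95% interval 7837 to 9549), with quartiles of 3818.5 and 18176 bp. For shared regions, measured to the nearest other one, it was 5539 bp (5454 to 5623), and for regions of 20 M alone 7182 bp (6994 to 7370). Shared regions whose own 4 M score was under 20, 414 in number, had a median of 5980.5 bp (4927 to 7491). For 4 M only regions under 20 it was 8423 bp (7450 to 9430), and these intervals overlapped slightly. The lower quartiles were 1586.75 and 3924 bp and the upper ones 17452.75 and 17719 bp. Whether the distance differs at like score was not tested. Among 4 M only regions the median was 8423 bp at scores under 20, 10337 bp at 20 to 29 and 8270 bp at 30 or more, with no steady trend. By time, it was 8495 bp for the ZT4 list alone, 9270 bp for the ZT16 list alone and 11133.5 bp for both.

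Close neighbours were correspondingly uncommon. A shared region lay within 1 kb of 97 of the 4 M only regions, or 6.73% (5.55 to 8.14), against 16.3% of shared regions, and within 10 kb of 54.6% (52.1 to 57.2), against 67.3%. For 4 M scores under 20, the shares within 1 kb were 5.905% (4.62 to 7.51) and 17.39% (14.04 to 21.34). Within 10 kb they were 55.9% (52.8 to 58.9) and 62.8% (58.1 to 67.3), with overlapping intervals. Beyond 50 kb there were 44 of the 4 M only regions. The nearest to a shared region was chr17:40010565-40010694, 98 bp away, with a ZT16 score of 10. The farthest, at chr6:20445-20539 near the start of its chromosome, had a ZT4 score of 11 and lay 198564 bp from a shared region, while a peak of an older age was 2409 bp away. Taking all regions of older ages together, the median distance was 5514 bp, and 224 of the 4 M only regions had one within 1 kb.

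**Figure D3:**
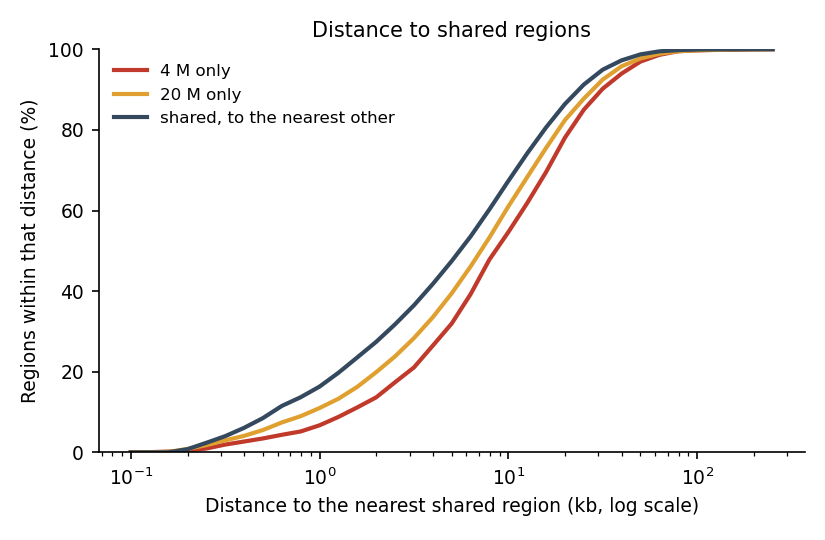
Lines show the percentage of regions that lay within a given distance of the nearest shared region, in kb on a log axis, for 4 M only regions, regions of 20 M alone, and shared regions measured to the nearest other one. At 10 kb the line is at 54.6% for 4 M only regions and 67.3% for shared regions.

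A neighbouring 4 M only region was common given how few there were. The nearest region of any class was another 4 M only region for 306 of the 1442, or 21.2% (19.2 to 23.4), although such regions make up 1.78% of all regions within the limits. It was a shared region for 724 and a region of older ages alone for 412. Among the 414 shared regions with a 4 M score under 20, the nearest region was a 4 M only one for 35, or 8.45% (6.14 to 11.5), and a region of older ages alone for 208. The median distance between a 4 M only region and the nearest other one was 127716 bp, with 184 of them within 1 kb and 424 within 10 kb. In the order of regions along a chromosome, 1069 (74.1%) had none of the 1442 as a direct neighbour. The other 373 (25.9%) followed each other without interruption in 140 runs of 2 or more. The 14 regions of 4 M alone that were left out for length counted as interruptions. Runs of 4 or more numbered 21 and held 105 regions.

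The longest uninterrupted runs were on chromosome 21. The run at chr21:18498214-18531281 held 11 regions with ZT4 scores up to 38, and that at chr21:18469478-18490336, just before it, held 8 with ZT4 scores up to 28 and ZT16 scores up to 22. Runs of 6 were found at chr3:5341700-5345909, all from the ZT4 list, and at chr7:8774460-8792880, where 5 of the 6 regions had a ZT4 peak and 2 a ZT16 peak. By score class, another 4 M only region lay within 10 kb of 28.9% (26.3 to 31.8) of those that scored under 20, of 32.8% (27.4 to 38.7) at 20 to 29 and of 26.5% (20.1 to 34.2) at 30 or more, with overlapping intervals.

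Windows of 1 Mb, counted from the first base of each chromosome up to its last peak, gave a profile of 1300 windows. A 4 M only region was present in 688 of them, or 52.9% (50.2 to 55.6), with 367 windows holding 1 region and the fullest 20. The 65 fullest windows, 5% of all, held 29.5% of the 4 M only regions. The same 65 windows held 4.82% of the shared regions, but they were not picked as the fullest for that class. In the fullest 5% of windows of each class itself, shared regions reached 8.54% and regions of 20 M alone 15.04%. Both classes have more regions than the 4 M only class, so their shares are not directly comparable with the 29.5%. Because the 65 windows were picked as the fullest for a class with few regions per window, the 29.5% is a description of the profile. What an even scatter would give was not tested. ZT4 peaks of 4 M only regions were found in 631 windows and ZT16 peaks in 176, and 119 windows had both.

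The fullest windows had 20 regions each. In chr21:18000001-19000000 there were 20 of the 4 M only regions and 36 shared regions, so that 35.7% (24.5 to 48.8) of the regions with a 4 M peak were 4 M only. In chr5:52000001-53000000 there were 20 and 59, or 25.3% (17.0 to 35.9). The window chr7:64000001-65000000 followed with 15 and 47, or 24.2% (15.3 to 36.2). Over all chromosomes the share is 2.27%. These windows were picked as the fullest, so shares above it follow from the choice, and the 3 intervals do not test an excess. Windows with 12, 11 and 11 of the 4 M only regions began at chr23:12000001, chr6:20000001 and chr25:25000001. Regions of 20 M alone numbered 4 in the window of chromosome 21, 21 in that of chromosome 5 and 43 in that of chromosome 7. They numbered 23 on chromosome 23, 82 on chromosome 6 and 20 on chromosome 25. Over all 1300 windows, the Spearman correlation of the number of 4 M only regions was 0.26 with regions of 20 M alone. With shared regions it was 0.048, and neither value was tested. These 6 windows held 89 of the 1442 regions. The remaining 1353 had a median distance of 8832 bp to a shared region, against 8802 bp for all 1442. Leaving out so few regions could move this median only a little, so the part of the dense windows in the distance was not tested.

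In each of the 3 fullest windows, most 4 M only regions lay in a shorter stretch, taken as the longest chain with gaps of at most 50 kb. The stretch chr21:18469478-18531281 spans 61.8 kb and held 20 of the 4 M only regions, 2 shared regions and no region of older ages alone. There were 17 with a ZT4 peak and 6 with a ZT16 peak, 3 of them with both. The ZT4 scores ran from 11 to 38 with a median of 19, and the lengths from 55 to 253 bp with a median of 155 bp. Inside the stretch, the 4 M only regions had a density of 32.4 per 100 kb. This follows from the choice, since the stretch is bounded by its own 4 M only regions in a window picked as the fullest. Shared regions had 3.24 per 100 kb inside and 3.62 in the rest of the window.

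The stretch chr5:52647698-52799078 spans 151.4 kb and was mixed. It held 18 of the 4 M only regions, 12 shared regions and 8 regions of older ages alone. The 4 M only regions had ZT4 scores of 12 to 26 with a median of 15, and the shared regions inside the stretch had 4 M ZT4 scores of 11 to 19, also with a median of 15. The 4 M peaks of both classes were thus weak there. At chr7:64369775-64425858, a stretch of 56.08 kb, 10 of the 4 M only regions lay among 3 shared regions and 14 regions of older ages alone. All 10 came from the ZT4 list alone, with scores of 12 to 25, and the 3 shared regions had ZT4 scores of 10 to 15. The 3 stretches differed in this way, from almost no peak of an older age on chromosome 21 to more regions of older ages than 4 M only regions on chromosome 7.

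**Figure D4:**
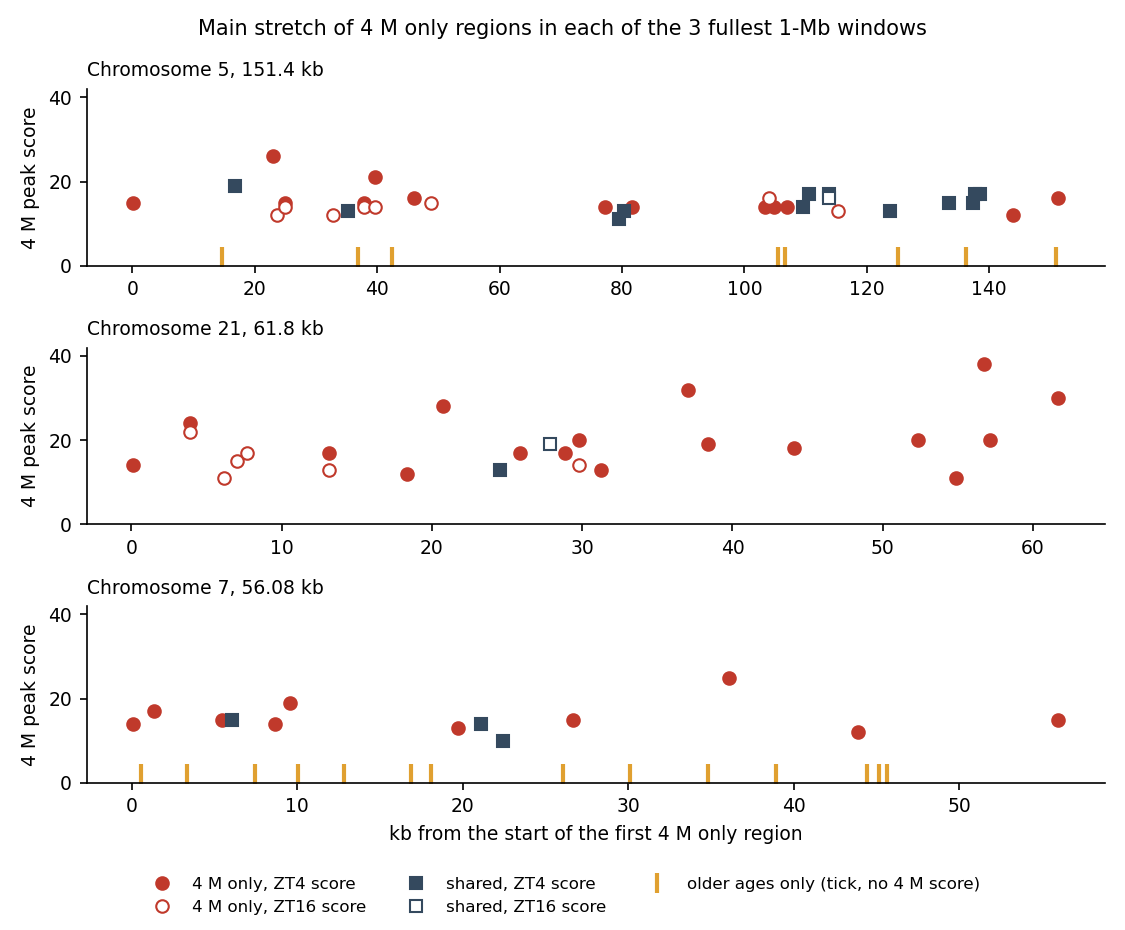
Each panel shows the regions of 1 stretch by their position in kb from the start of the first 4 M only region and by the authors' 4 M score (filled symbols ZT4, open symbols ZT16), with ticks for regions of older ages alone. The chromosome 21 stretch has 20 of the 4 M only regions and no tick, and in the chromosome 5 and chromosome 7 stretches the shared regions have ZT4 scores of 10 to 19.

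All 25 chromosomes held 4 M only regions, with numbers from 10 on the included part of chromosome 4 to 92 on chromosome 7. The density ran from 0.4 per Mb on chromosome 4 to 1.66 per Mb on chromosome 22, and that of shared regions from 39.8 to 53.3 per Mb. As a share of the regions with a 4 M peak, 4 M only regions made up 3.18% on chromosome 22 (2.50 to 4.03), 2.99% on chromosome 21 (2.35 to 3.79) and 2.88% on chromosome 20 (2.32 to 3.57). The lowest shares were 0.995% on chromosome 4 (0.541 to 1.82) and 1.34% on chromosome 19 (0.948 to 1.88). Over all chromosomes the interval of the share is 2.16 to 2.39%. The interval of chromosome 22 lay above it and those of chromosomes 4 and 19 below it, and the other 22 overlapped it. Each chromosome is part of that total and neighbouring regions are not independent draws, so a difference between chromosomes was not tested. On chromosome 21, the 65 regions formed 39 runs or single regions. Without its runs of 4 or more the share was 1.88% (1.39 to 2.55) there, and over all chromosomes it was 2.11% on the same count. Runs were chosen after their values were seen and were taken out of the 4 M only regions alone, so this count can only lower a share. Chromosome 22 has no run of 4 or more and kept its 3.18%.

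**Figure D5:**
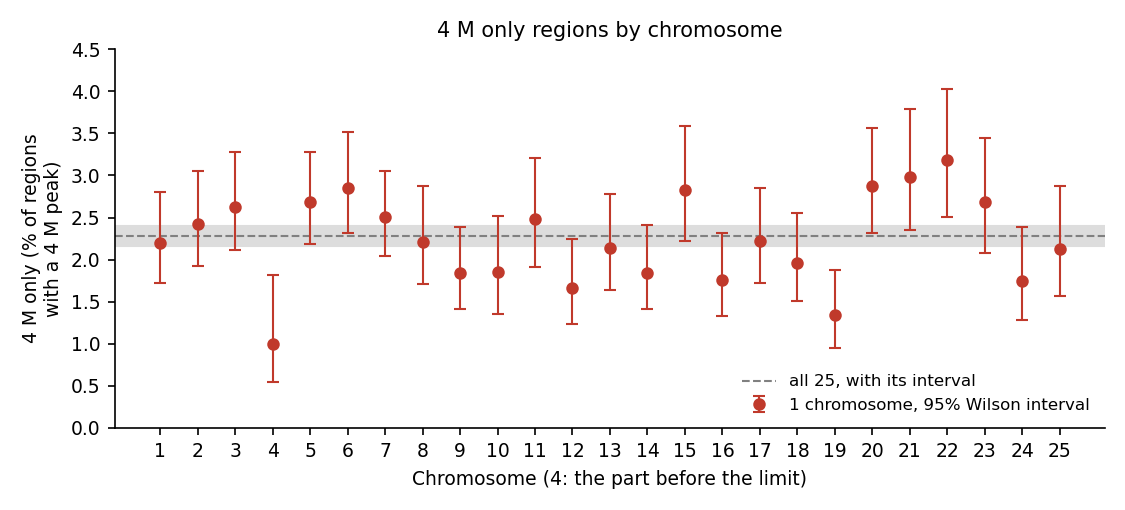
Points show 4 M only regions as a percentage of all regions with a 4 M peak on each chromosome, with Wilson 95% intervals, and the band shows the interval over all 25. Chromosome 22 is highest at 3.18%, and chromosomes 19 and 4 are lowest at 1.34% and 0.995%.

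A larger share of the 4 M only regions than of the shared regions lay near the chromosome ends. Without chromosome 4, and with the last peak of any list taken as the end, 102 of 1432 lay within 1 Mb of an end, or 7.12% (5.90 to 8.57), against 2.62% of shared regions (2.50 to 2.75) and 5.56% of regions of 20 M alone. The share was higher for 4 M only than for shared regions on 22 of the 24 chromosomes, and 40 of the 48 ends held at least 1 of the 102. With each run counted once the share was 7.66%. Weak shared regions had a like excess, since 10.2% (7.63 to 13.5) of the shared regions with a 4 M score under 20 lay within 1 Mb of an end. The position near ends was therefore not particular to the 4 M only class. It was also not limited to the weakest 4 M only regions, with 6.33% (4.997 to 7.99) for scores under 20 and 9.14% (6.70 to 12.3) for 20 or more.

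Gene names were available for the loci of the study's lists of diurnal and age-related transcripts, from which positions and names alone were used. These lists were chosen by RNA expression in brains of the same ages and times. Whether a region lay in an exon or an intron was not analysed here. Within the chromosome limits they hold 351 annotated loci and 553 loci of unannotated transcripts. Inside these loci or within 3 kb of them lay 37 of the 4 M only regions, or 2.57% (1.87 to 3.52), against 1.97% of shared regions (1.87 to 2.09) and 1.82% of regions of 20 M alone. The interval for 4 M only regions overlaps that for shared regions. At annotated loci the shares were 0.763% (0.427 to 1.36) and 1.03%, and at unannotated loci 1.803% (1.23 to 2.63) and 0.948% (0.874 to 1.03). The intervals at unannotated loci did not overlap, but 9 of the 26 regions there lay at XLOC_067663 and XLOC_048101. Without these loci the shares were 1.18% (0.737 to 1.88) and 0.888% (0.817 to 0.965), with overlapping intervals. A 4 M only region was found at 10 of the annotated loci (2.85%, 1.56 to 5.16) and at 19 of the unannotated loci (3.44%, 2.21 to 5.30).

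Of 27 clock genes, 13 have a locus in these lists, and 3 of the 13 had a 4 M only region, while 10 of the 13 had a shared region. Over all 351 annotated loci these numbers were 10 and 224, and with 3 genes nothing particular to clock genes can be read from the counts. In per3, which encodes a Period repressor of the circadian clock, the region chr11:39758132-39758177 lay 1012 bp after the locus and had a ZT4 score of 40, at percentile 5.93 of the list. The locus held 3 shared regions, with ZT4 scores of 92 to 175. In clocka, which encodes the activating clock factor that pairs with Bmal1, chr20:22193371-22193469 lay inside the locus with a ZT4 score of 13, beside 6 shared regions with scores of 67 to 161. In nr1d2a, which encodes a nuclear receptor of the Rev-erb family that represses clock targets, chr16:49889128-49889173 lay inside the locus with a ZT4 score of 12, beside 5 shared regions with scores of 58 to 171. At all 3 genes the 4 M only peak was weaker than every shared peak of the same locus. This was not particular to clock genes. The same held at fech (26 against 114), nmrk2 (13 against 113 to 123) and zgc:92041 (12 against 105 to 151). It did not hold at slc2a1a (35 against 23 to 163). No writer or reader of H3K9me3 among the 14 looked for has a locus in these lists.

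The other 7 annotated loci with a 4 M only region include those of metabolic, muscle and transport genes. The region in fech, the ferrochelatase that completes heme synthesis, was chr21:1638046-1638093 with a ZT4 score of 26, and the locus had 1 shared region with a score of 114. In slc2a1a, a glucose transporter gene, chr23:22248625-22248673 had a ZT4 score of 35 and chr23:22258431-22258482 a ZT16 score of 20. That locus, 74.81 kb long, also held 5 shared regions and 9 regions of 20 M alone. At tnnc1b, which encodes a troponin C subunit, chr23:20181624-20181669 lay 2159 bp before the locus with a ZT4 score of 32, and no shared region lay at the locus. The region at scn4ab, a sodium channel gene of muscle, was chr3:22163802-22164000 with a ZT16 score of 11.

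The remaining regions at annotated loci were weak. At nme2b.2, a nucleoside diphosphate kinase gene, chr19:48455646-48455780 lay 977 bp after the locus with a ZT4 score of 24 and no shared region beside it. At nmrk2, a nicotinamide riboside kinase gene of NAD synthesis, chr2:55869404-55869490 lay 2188 bp after the locus with a score of 13. In zgc:92041, chr22:7397302-7397381 had a score of 12. Of the 11 regions at the 10 annotated loci, none was listed at both times. Of all 1442 there were 44, so nothing particular to these loci can be read from this. The loci with no shared region were tnnc1b and nme2b.2, which are 2.417 and 3.163 kb long. Over all 351 annotated loci, 224 had a shared region.

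Several unannotated loci held more than 1 of the regions. XLOC_067663, a locus of 508.2 kb on chromosome 7, held 5, together with 37 shared regions. Of the 5, chr7:71699319-71699616 was listed at both times with scores of 29 (ZT4) and 31 (ZT16), and so was its neighbour chr7:71699865-71700204 with scores of 33 and 24. After XLOC_048101 on chromosome 25, a locus of 0.392 kb, 4 of the 4 M only regions lay between 399 and 1894 bp from the locus, with ZT4 scores of 10 to 17 and with no shared region. XLOC_021414 on chromosome 16 held chr16:20644544-20644741 and chr16:20659861-20659906, with ZT4 scores of 17 and 25, beside 11 shared regions. By contrast, XLOC_001352 on chromosome 1 held a single region, chr1:51739548-51739757. It was listed at both times with scores of 24 (ZT4) and 14 (ZT16), and no shared region lay at that locus. XLOC_052403 and XLOC_052404 lie next to each other on chromosome 4 and share the regions chr4:5944087-5944186 and chr4:5946070-5946115, which scored 30 and 14 at ZT4 and lay 41816 and 39887 bp from the nearest shared region.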

How the data were processed

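ChIP-seq with an antibody against H3K9me3 was carried out on zebrafish brain in 18 libraries. Per the paper's methods, the authors used Bowtie2 for mapping to GRCz10 and MACS2 for peak calling on the BAM files of each triplicate. The submitters' processing notes give version 2.2.1 for MACS2 and name the mapper as Bowtie. The control library of the calls is not given in the sources used here. Each deposited peak has a score from the authors' peak caller. It has no stated scale or depth, and scores of peaks were compared within a list. Score classes of whole regions used the higher of the ZT4 and ZT16 scores. The minimum scores among the alternatives were applied alike to the lists named there. Lists were merged at an overlap of at least 1 bp, and positions are counted from 1. Shares have Wilson 95% intervals and medians order-statistic 95% intervals. Python 3.11.15, numpy 2.4.6, pandas 2.3.3, scipy 1.17.1, matplotlib 3.10.9 and bedtools 2.31.1 were used. Merging and the assignment to classes were tested on simulated data. The number of merged regions and the sum of distances from 4 M only to shared regions were checked against bedtools. The regions and lists were chosen with earlier results of these data known. Named regions are those with the highest scores, those at the limits of length, chromosome 4, overlap and distance, those of the 3 fullest windows, and those at annotated loci. Runs, unannotated loci and positions near chromosome ends were chosen after their values were seen. Alternatives were score minimum, merging gap, length limit, chromosome 4, list size, the 12 M lists, window size and flank.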

Additional observations from a re-analysis of the deposited data

How the results depend on the processing

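The number of 4 M only regions depended on scores and list size. With a score of at least 20 in every list it was 467 (median length 84 bp, median score 26, median distance to a shared region 11338 bp). With at least 30 in every list it was 173 (55 bp, score 37, 11250 bp), and with at least 30 in the 4 M lists alone 147 (53 bp, score 38, 11121 bp). Of the 467 and the 173, 400 and 143 were identical to regions of the full set. With the 20 M ZT16 list reduced to the size of the 4 M ZT4 list it was 2603 (105 bp, score 18, 10815 bp). The median distance was 9605 bp when peaks within 1 kb were merged. Windows of 500 kb gave 33.0% with a 4 M only region and 38.6% of the regions in the fullest 5%, and windows of 2 Mb gave 74.2% and 22.7%. With each run counted once, a choice made after seeing the data, the fullest windows held 24.9%. Without a flank, 1.66% of the regions lay at a locus. Of 56 alternative values over 8 results, 32 moved by less than the interval or by less than 1.5 times in number. These include numbers of 1417 and 1117 regions after merging within 100 bp and 1 kb, 1456 without a length limit, 1432 without chromosome 4 and 1451 without the 12 M lists. In every alternative for which the split was counted, most regions came from the ZT4 list alone. That list is also the longer one, with 70317 peaks against 55874 at ZT16. Peaks of shared regions listed at 1 time alone were mostly ZT4 peaks too. There, 50663 of 61911 ZT4 peaks and 50648 of 50764 ZT16 peaks were also in the other 4 M list.

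No paired analysis was possible because each list pools a triplicate and carries no replicate number. Leaving out a library was not possible for the same reason. Sequence features of the regions and their share inside annotated genes were not run, since no GRCz10 genome or annotation was used here. The read number in the methods is not tied to single libraries, enrichment in the pull-down and the spread between fish are not given for any list, and their part in which regions were listed at 4 M alone was not tested.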
